A study of Mus musculus with 5 samples.

Results

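The genes described here encode the proteins of the cytosolic small (40S) ribosomal subunit, in the transcriptomes of invariant natural killer T (iNKT) cells sorted from mouse liver. They were taken by name: protein-coding genes whose symbol starts with Rps and a digit, or is Rpsa or Fau, without names holding -ps and without the Rps6k kinases. The rule used no measured value and gave 35 genes of the 55364 gene rows counted in each library. Of the 35, 14 encode proteins of the subunit's head and 18 proteins of its body and platform. The other 3 are Rps27l and Rps27rt, relatives of Rps27, and Rps19bp1, which matches the naming rule but encodes a nucleolar partner of Rps19 and no subunit.

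The small subunit binds the mRNA, scans it for a start codon together with initiation factors and holds the decoding site where codon and tRNA meet. Its proteins are made from some of the most abundant mRNAs of a lymphocyte. Most of these mRNAs begin with a C followed by a run of pyrimidines, the terminal oligopyrimidine (TOP) tract, through which mTOR signalling sets how well they are translated. Each protein has a single place in the subunit, and the genes have left many processed pseudogenes, reverse-transcribed copies of the spliced mRNA, in the mouse genome.

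The cells came from livers of wild-type (WT) C57BL/6 males, and were sorted as positive for the T cell receptor beta chain and for CD1d tetramers carrying the lipid PBS57. The healthy group is 2 libraries from mice treated with PBS. The HCC group is 3 libraries from mice with hepatocellular carcinoma after 1 intraperitoneal injection of 25 mg/kg diethylnitrosamine (DEN), a liver carcinogen, at 15 days of age. Livers were taken at 38 to 42 weeks. No allele or transgene separates the groups, and whether cells of the tumours were kept apart from those of the tissue around them is not given in the sources used here. The comparison asked how iNKT cells of a tumour-bearing liver differ from those of a healthy one.

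Libraries were 3' mRNA tags, in which a transcript gives reads near its 3' end, so levels are given as CPM, counts per 1000000 counts of the library total, and were not divided by length. Totals were 1718452 to 2224356 counts, and 3 counts, the most that a count of 0 allows, are 1.35 to 1.75 CPM. This limit covers counting error only. The 11 T cell and iNKT markers summed to 4572 to 5936 CPM in every library, but single markers were less even. Klrb1c was at 382 CPM in healthy 1, 5.49 in healthy 2, and 465, 20.95 and 333 in HCC 1 to 3. Zbtb16, the transcription factor that defines iNKT cells, was at 0 to 1.65 CPM, so the label rests on the sort and on T cell genes. Healthy 1 differed by over 2-fold from each other library in 24.8 to 34.2% of 608 other protein-coding genes averaging 100 CPM or more, and pairs without it in 3.45 to 8.72%. Erythroid markers, 5 of 5 fitted higher in HCC, summed to 2975 CPM in healthy 1, 2787 in healthy 2, and 7390, 17083 and 15384 in HCC 1 to 3. Hepatocyte markers summed to 96.7, 85.6, 125, 390.5 and 843 CPM in the same order, with all 12 tested of 16 fitted higher in HCC. B cell, macrophage and liver endothelium markers summed to at most 175, 43.2 and 3.19 CPM. The neutrophil list summed to 320.0 to 589 CPM, of which Mmp9 made up 311 to 587 CPM, with Mmp8 and Csf3r at 0. The part of these markers in the results below was not tested. In such bulk samples, fewer cells of a type and less RNA per cell cannot be told apart, and p-values measure only the spread between these libraries.

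Reads of several of these genes cannot be given to one row by sequence alone, as in the Rps27 family. The coding sequences below, of 255 bases each, were read from GENCODE M21 transcripts (mm10). Capitals in Rps27l mark the bases that differ from Rps27.
Rps27: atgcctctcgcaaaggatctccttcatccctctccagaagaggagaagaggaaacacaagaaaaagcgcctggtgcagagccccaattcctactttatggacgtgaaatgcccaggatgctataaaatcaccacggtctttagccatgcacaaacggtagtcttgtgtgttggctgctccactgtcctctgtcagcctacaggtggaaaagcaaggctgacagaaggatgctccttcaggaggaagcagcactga
Rps27rt: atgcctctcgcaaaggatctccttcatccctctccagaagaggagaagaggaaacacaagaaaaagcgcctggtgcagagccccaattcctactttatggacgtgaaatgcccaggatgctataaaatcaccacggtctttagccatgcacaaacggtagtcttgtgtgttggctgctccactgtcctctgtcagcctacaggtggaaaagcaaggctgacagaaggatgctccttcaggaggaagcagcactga
Rps27l: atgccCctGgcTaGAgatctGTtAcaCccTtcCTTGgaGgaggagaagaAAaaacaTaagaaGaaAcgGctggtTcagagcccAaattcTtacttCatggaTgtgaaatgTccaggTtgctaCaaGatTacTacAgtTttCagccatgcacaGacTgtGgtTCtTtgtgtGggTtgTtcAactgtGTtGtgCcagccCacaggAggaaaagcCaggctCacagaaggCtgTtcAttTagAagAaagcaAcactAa
The coding sequences of Rps27 (chr3:90212522-90213651, minus strand) and Rps27rt (chr9:114982366-114982739, minus strand) differed at 0 bases. Rps27l (chr9:66946086-66949516, plus strand) differed from Rps27 at 61 bases and was 76.1% identical. The split of counts between Rps27 and Rps27rt is therefore uncertain within the coding sequence.

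Windows around the annotated starts show a pyrimidine run over the first base in a minority of these genes. RefSeq (GRCm38.p6) gave promoters for 27 of the 35 genes, and the gene's strand was searched, from 30 bases before the first transcribed base through the 30th transcribed base. Capitals mark the longest run of C and T that starts in each window. The first set holds genes in which a run of at least 5 such bases covers the annotated first base.
Fau, chr19:6057917-6057976, plus strand: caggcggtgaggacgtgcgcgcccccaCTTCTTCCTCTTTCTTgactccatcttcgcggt
Rps10, chr17:27635215-27635274, minus strand: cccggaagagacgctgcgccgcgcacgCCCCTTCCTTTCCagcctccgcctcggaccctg
Rps18, chr17:33955636-33955695, minus strand: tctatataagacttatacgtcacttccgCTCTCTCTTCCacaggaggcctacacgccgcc
Rps24, chr14:24490648-24490707, plus strand: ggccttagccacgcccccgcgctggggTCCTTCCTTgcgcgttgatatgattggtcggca
Rps27, chr3:90213619-90213678, minus strand: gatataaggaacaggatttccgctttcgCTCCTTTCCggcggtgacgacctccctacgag
Rps6, chr4:86857338-86857397, minus strand: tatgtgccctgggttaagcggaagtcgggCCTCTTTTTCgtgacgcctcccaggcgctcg
Rps9, chr7:3704011-3704070, plus strand: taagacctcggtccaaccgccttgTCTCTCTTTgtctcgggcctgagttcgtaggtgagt
For Rps24 the first of its 2 annotated starts is shown, and at the second the first base lies in no such run. In the next 3, shown for contrast, the first base lies in no such run.
Rps28, chr17:33824533-33824592, minus strand: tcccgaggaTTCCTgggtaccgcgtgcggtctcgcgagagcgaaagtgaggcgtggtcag
Rps4x, chrX:102189362-102189421, minus strand: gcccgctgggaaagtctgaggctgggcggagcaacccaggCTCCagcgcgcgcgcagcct
Rps3, chr7:99483680-99483739, minus strand: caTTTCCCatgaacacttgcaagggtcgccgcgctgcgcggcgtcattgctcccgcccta
A run of at least 5 C or T bases covered the first base in 10 of 27 of these genes (37.0%), in 12 of 40 large subunit genes (30.0%) and in 11.8% of all 27025 genes with a promoter in the table. The 10 were Fau, Rps10, Rps15a, Rps18, Rps21, Rps24, Rps27, Rps27rt, Rps6 and Rps9. Their median log2 fold change of HCC over healthy was -0.40, with 8 of 10 fitted lower. That of the 17 others, which include Rps19bp1, was -0.03, with 10 fitted lower. Signs changed without healthy 1 in both sets, as for Rps18 (-0.19), Rps24 (0.07) and Rps9 (0.10) among the 10. Among the 17 they did for Rps4x (0.63) and Rps28 (-0.61), for example. The shares and medians are descriptions of a window that depends on the annotated start.

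Together the 35 genes held 9.36 to 10.96% of the counts of a library. Their summed level was 103473 CPM in healthy 1 and 109569 in healthy 2, and 104611, 99846 and 93620 CPM in HCC 1, 2 and 3. The healthy libraries averaged 106521 ± 4310 CPM (SD, n = 2) and the HCC libraries 99359 ± 5512 CPM (n = 3), a ratio of 0.933. HCC 1 lay between the healthy libraries on library totals. With TMM scaling, which sets levels relative to most other genes, the sums were 124735 and 105728 CPM in healthy 1 and healthy 2 and 100697, 89152 and 93640 CPM in the HCC libraries, all below both healthy ones, so whether the groups overlapped depended on the scaling.

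On summed levels healthy 1 was the lowest library for head genes and the highest for body and platform genes. Head genes summed to 36443 CPM in healthy 1, 56423 in healthy 2, and 55657, 51993 and 45069 in HCC 1 to 3. Body and platform genes summed to 63216 and 49665 CPM in the healthy libraries and to 45923, 44621 and 45244 CPM in the HCC libraries, below both healthy ones, and without Rps24 to 38956 and 39616 CPM against 35172, 35605 and 32988 CPM. The ratio of head to body and platform was 0.577 in healthy 1, 1.14 in healthy 2 and 0.996 to 1.21 in the HCC libraries. Healthy 1 lay below the other 4 libraries, and without Rps18 and Rps24 its ratio was 0.855 against 1.06 to 1.18 in the other 4.

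Against this background no gene of the small subunit passed the test of HCC against healthy. edgeR's quasi-likelihood test over 8468 genes called 0 of 35 at an adjusted p under 0.05, with an adjusted p of 0.9999 for each, and 0% of all genes (0 of 8468). At an unadjusted p under 0.05 it gave 0 of 35, against 3.63% of all genes, with DESeq2's Wald test at 2 of 35 (4.2% of all genes) and limma-voom at 1 of 35 (2.46% of all genes). All 35 passed the filter on low counts. The standard errors were 0.32 to 1.21 on the log2 scale with a median of 0.37. The 95% intervals reached down to -4.25 (Rps19bp1) and up to 1.59 (Rps18).

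Most of the fitted differences lay below 0, as they did for other abundant genes. The median log2 fold change of the 35 was -0.31, and 25 of 35 were fitted lower in HCC (71.4%). The share fitted lower was 49.7% over all genes tested and 65.4% over the 1120 genes that averaged 100 CPM or more, whose median was -0.17. The 1120 include 33 of the 35 genes, 49 large subunit genes and 121 pseudogene rows that align best to the 35. With library totals in place of TMM scaling the median of all genes moved from 0.00 to 0.16, and 19 of 35 (54.3%) were fitted lower against 39.2% of all genes. Relative to all genes the median of the 35 was then -0.28.

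**Figure D1:**
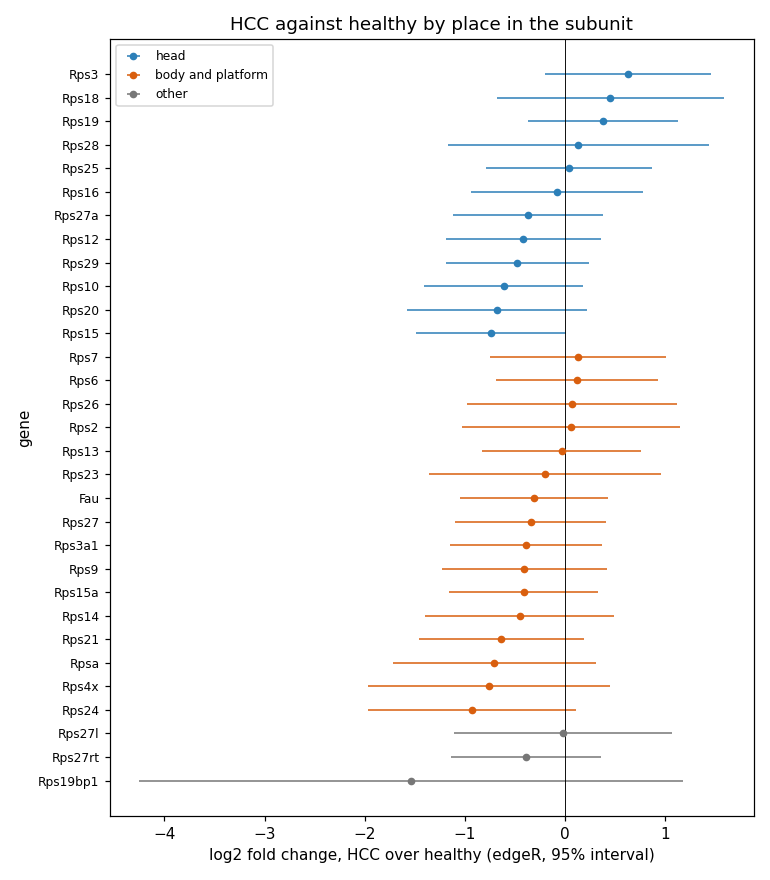
Fitted log2 fold change of HCC over healthy (edgeR, TMM scaling) for 31 of the 35 genes, ordered within head, body and platform, and other; points are estimates and bars 95% intervals. Every interval reaches 0, and the estimates run from -1.54 (Rps19bp1) to 0.63 (Rps3).

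On TMM-scaled levels the 3 HCC libraries lay below both healthy libraries for 9 of 35 genes (25.7%), against 8.44% of all genes and 11.2% of those with a mean of at least 100 CPM. The 9 were Fau, Rps10, Rps12, Rps15, Rps15a, Rps19bp1, Rps27a, Rps27rt and Rps29. They lay above both for Rps19 and Rps3, which is 5.71% against 10.6% of all genes and 7.23% of those abundant ones. On each library's own total 4 of 35 lay below (Fau, Rps10, Rps15 and Rps27rt; 5.46% of all genes did) and 3 above (Rps19 and Rps3 among them; 12.8% of all genes did). The number of genes without overlap thus changed with the scaling. Against a single healthy library, where more genes lie to one side by construction, 16 lay below healthy 2 (45.7%, with 24.8% of all genes) and 6 above it (17.1%, with 21.8%). Against healthy 1, 18 lay below (51.4%, with 30.4%) and 9 above (25.7%, with 35.8%).

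The head proteins surround the decoding site and the mRNA's entry, and 8 of 14 of their genes were fitted lower, with a median of -0.04. Rps3, a KH-domain protein at the mRNA entry (chr7:99477896-99483738), was at 2086 CPM in healthy 1, 3779 in healthy 2, and 6242, 4943 and 3891 in HCC 1 to 3. All HCC libraries lay above both healthy ones, HCC 3 only just, with a log2 fold change of 0.63 (SE 0.37, edgeR adjusted p = 0.9999). Rps19, a gene mutated in Diamond-Blackfan anaemia (chr7:24884371-24889806), was at 2447 and 3838 CPM and at 4603, 4356 and 4638 CPM. In its own row the groups did not overlap either, and the HCC libraries were close to each other (4532 ± 154 CPM). The healthy ones were not (log2 fold change 0.38, SE 0.33). Counting the pseudogene rows that align best to Rps19 as well, healthy 1 reached 5958 CPM and healthy 2 reached 6756 CPM. HCC 1, HCC 2 and HCC 3 then reached 7462, 7014 and 7605 CPM, still above both on library totals. With pseudogene rows added, the fitted log2 fold change of Rps19 was only 0.02.

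Rps18, which contacts the large subunit from the head (chr17:33951999-33956001), was at 3140 CPM in healthy 1, 13643 in healthy 2 and 14063, 14068 and 8737 CPM in HCC 1, 2 and 3. Healthy 2 stood beside HCC 1 and HCC 2, and healthy 1 stood 4.34-fold below healthy 2. The log2 fold change of 0.45 (SE 0.51) was -0.19 without healthy 1. Rps28, a small protein near the mRNA's exit (chr17:33819027-33824562), was at 778, 4960, 4196, 3188 and 2527 CPM in the same order. The 2 healthy libraries bracketed all 3 HCC libraries and lay 6.37-fold apart, the widest gap between them among the 35 genes (log2 fold change 0.13, SE 0.58, and -0.61 without healthy 1).

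Rps15, a head protein close to the decoding site (chr10:80292453-80294114), had the smallest p of the 35. It was at 1510 CPM in healthy 1, 2193 in healthy 2, and 1418, 1084 and 1198 in HCC 1 to 3. All HCC libraries lay below both healthy ones, HCC 1 by little (log2 fold change -0.74, SE 0.33, edgeR unadjusted p = 0.0518, adjusted p = 0.9999). Rps20, a head protein that is ubiquitinated on stalled ribosomes, was at 5610 and 3459 CPM and at 3077, 2815 and 3973 CPM. HCC 3 lay between the healthy libraries, and the log2 fold change was -0.68 (SE 0.40) and -0.09 without healthy 1.

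Rps27a is translated as a fusion with ubiquitin and so also feeds the ubiquitin pool. It was the third in level, at 5654 CPM in healthy 1, 8626 in healthy 2, and 6791, 6851 and 4948 in HCC 1 to 3 (log2 fold change -0.37, SE 0.33). Its groups overlapped on library totals and did not on TMM-scaled levels. For 5 other head genes, Rps10, Rps12, Rps16, Rps25 and Rps29, log2 fold changes were -0.61 to 0.04.

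The body and platform carry the mRNA channel and the side that meets the large subunit, and 14 of 18 of their genes were fitted lower, with a median of -0.33. Without healthy 1 the medians of body and platform and of head genes were -0.13 and -0.22, in the opposite order. Rps24, a body protein also mutated in Diamond-Blackfan anaemia (chr14:24487125-24496959), had the highest mean level of the 35, a rank that rests on healthy 1. It was at 24261 CPM in healthy 1, 10049 in healthy 2 and 10751, 9016 and 12256 CPM in HCC 1, 2 and 3. Healthy 2 lay among the HCC libraries and healthy 1 was 2.41-fold above it. The log2 fold change of -0.93 (SE 0.47, unadjusted p = 0.0747) was 0.07 without healthy 1. Rps24 alone made up 23.5% of the counts of the 35 genes in healthy 1 and 9.03 to 13.1% in the other libraries.

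Rpsa, which is also known as the laminin receptor (chr9:120127689-120132369), was at 5304 CPM in healthy 1, 2429 in healthy 2, and 3455, 2994 and 2023 in HCC 1 to 3 (log2 fold change -0.71, SE 0.45). Rps4x, the X-linked member (chrX:102184941-102189394), was at 3607 and 1054 CPM and at 1260, 1708 and 2009 CPM (-0.76, SE 0.54). In both, healthy 1 was the highest library, and without it the fold changes were 0.19 and 0.63. Healthy 2 lay among the HCC libraries for Rpsa and below all 3 for Rps4x. Rps21 was at 5919 and 4072 CPM and at 4106, 3542 and 3562 CPM (-0.64, SE 0.37, and -0.15 without healthy 1), and Rps9, at the mRNA entry, at 6125 and 4137 CPM and at 4782, 4381 and 4332 CPM (-0.41, SE 0.37). Healthy 2 lay among the HCC libraries for Rps21 and below all of them for Rps9.

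Other body genes were lowest in healthy 1. Rps23, which lines the decoding site, was at 1520 CPM in healthy 1, 7031 in healthy 2 and 4479, 4757 and 2689 CPM in HCC 1, 2 and 3. The healthy libraries again bracketed the HCC libraries, 4.63-fold apart (log2 fold change -0.20, SE 0.52, with 1.09 without healthy 2). Rps2, at the mRNA entry, was at 192, 717, 553, 652 and 329 CPM (0.06, SE 0.49), and Rps7 at 221, 566, 519, 462 and 417 CPM (0.13, SE 0.39). Both had healthy 1 lowest and healthy 2 highest, and without healthy 1 their values were -0.53 and -0.31.

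Rps6, the substrate of the S6 kinases, differed little between groups. It was at 747 CPM in healthy 1, 635 in healthy 2, and 727, 1125 and 759.6 in HCC 1 to 3, with HCC 2 apart from the rest (log2 fold change 0.12, SE 0.36). Fau, made as a fusion with a ubiquitin-like protein, had the narrowest spread of all in its own row, at 552 and 538 CPM and at 515, 516 and 478 CPM. In that row the 3 HCC libraries lay below both healthy ones by a small step (-0.31, SE 0.33). With the pseudogene row that aligns best to Fau added, the healthy libraries were at 4305 and 3064 CPM. HCC 1 to 3 were then at 3214, 3208 and 3700 CPM, between them. Rps27 was at 2194 and 2141 CPM and at 1725, 1955 and 2166 CPM (-0.34, SE 0.34), with HCC 3 between the healthy libraries. For 5 other body and platform genes, Rps3a1, Rps13, Rps14, Rps15a and Rps26, log2 fold changes were -0.45 to 0.07.

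Of the 3 genes outside the canonical set, Rps27rt, identical to Rps27 in its coding sequence, had the higher counts of the pair. It was at 3788 CPM in healthy 1, 3438 in healthy 2, and 3002, 3203 and 3279 in HCC 1 to 3 (log2 fold change -0.39, SE 0.33), with no overlap between groups. Rps27l, a paralog induced by p53, was at 18.9 and 25.8 CPM and at 22.9, 22.7 and 28.1 CPM, with mixed groups (-0.02, SE 0.49). Rps19bp1 had 13 and 31 counts in the healthy libraries and 12, 11 and 0 in the HCC libraries. Its log2 fold change of -1.54 (SE 1.21) was the lowest of the 35 and rests on these few counts, and the 0 in HCC 3 allows up to 1.59 CPM.

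**Figure D2:**
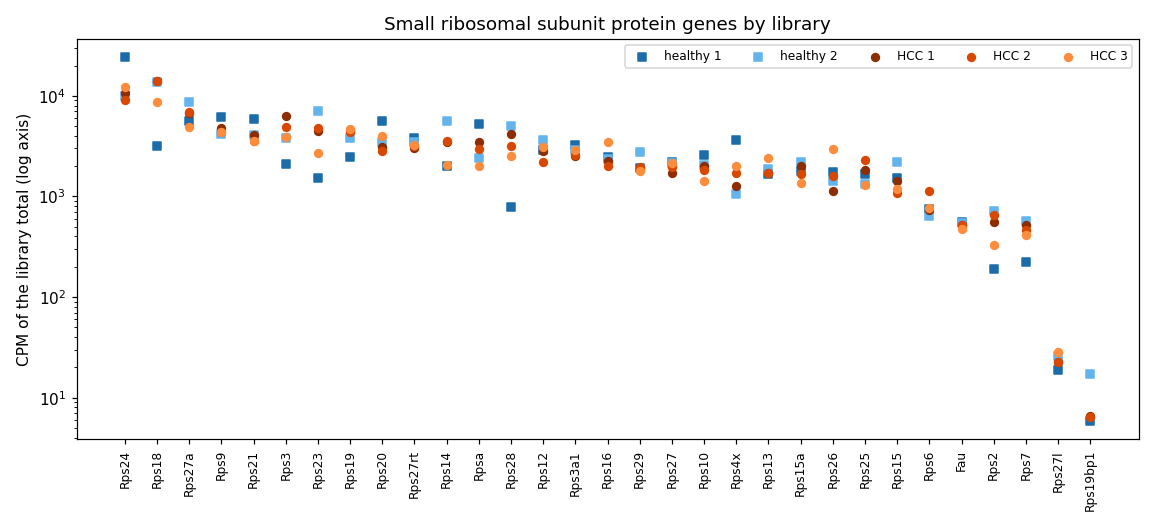
Level of 31 of the 35 genes (CPM of the library total, log axis), ordered by mean, with squares for the 2 healthy and circles for the 3 HCC libraries. Healthy 1 is often the highest or the lowest point, as for Rps24 (24261 CPM) and Rps28 (778 CPM); the 0 of Rps19bp1 in HCC 3 is not drawn.

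Over all 5 libraries the order of mean levels was led by Rps24 (13266 ± 6258 CPM, SD), Rps18 (10730 ± 4804), Rps27a (6574 ± 1399) and Rps9 (4752 ± 803). Without healthy 1 Rps18 was first, with a mean of 12628 CPM against 10518 CPM for Rps24. The first 2 do not differ beyond their spread, and neither do neighbours further down, where Rps21, Rps3, Rps23 and Rps19 followed at 4240 to 3976 CPM. At the lower end, 33 of 35 had a mean of at least 100 CPM, and only Rps27l (23.7 CPM) and Rps19bp1 (7.16 CPM) lay under it.

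The spread between libraries was uneven from gene to gene. The coefficient of variation over 5 libraries ranged from 5.38% (Fau) to 51.5% (Rps23 and Rps28) and 52.4% (Rps4x), with a median of 23.7% over the 33 genes. The median was 27.1% in the 608 other protein-coding genes and 21.9% in 49 large subunit genes at the same floor of 100 CPM. Without healthy 1 the medians were 20.1%, 18.6% and 16%. Within the HCC libraries they were 17.5%, 16.8% and 12.5%, so the small subunit genes spread about as much as other genes of their range.

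**Figure D3:**
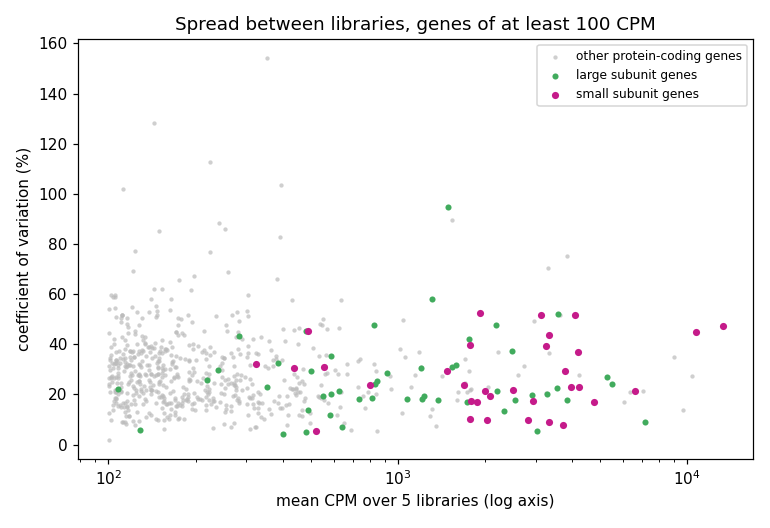
Coefficient of variation over the 5 libraries (%) against mean CPM (log axis) for genes averaging 100 CPM or more, with small subunit genes, large subunit genes and other protein-coding genes in separate colours. The small subunit genes span 5.38 to 52.4% and lie within the range of the others.

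Both healthy libraries were often at the ends of the range. Healthy 1 was the highest library for 11 of the 33 genes and the lowest for another 11, and healthy 2 was the highest for 12 and the lowest for 5. Healthy 1 and healthy 2 differed by over 2-fold in 11 of 33 (33.3%), and 34.2% of other protein-coding genes did. Healthy 1 differed that much from HCC 1, 2 and 3 in 9, 9 and 3 genes, healthy 2 from them in 0, 1 and 4, and the HCC libraries from each other in 0, 1 and 0. The 2 healthy libraries were thus further apart in these genes than any pair of HCC libraries.

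**Figure D4:**
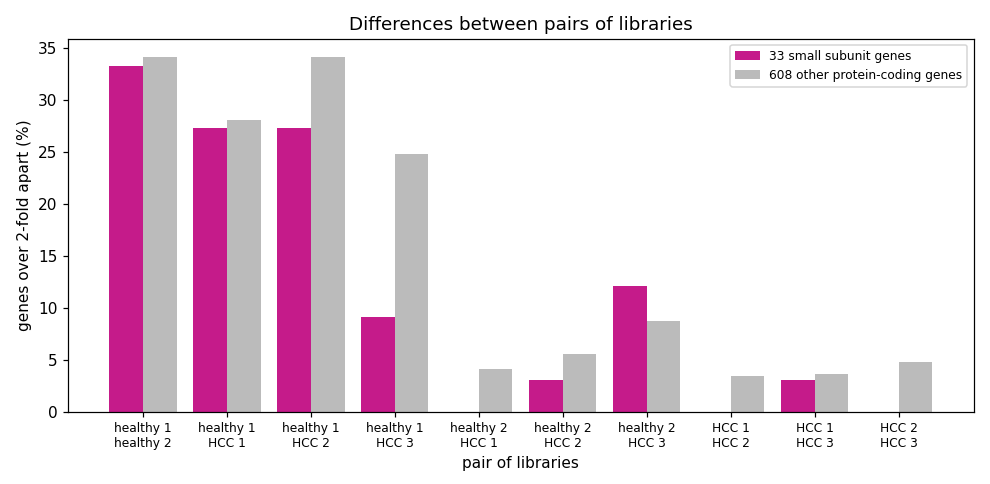
Share of genes over 2-fold apart (%) for each of the 10 pairs of libraries, in the 33 small subunit genes and the 608 other protein-coding genes that averaged 100 CPM or more. The pair of healthy libraries has the highest share of small subunit genes, 33.3%.

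Rows of pseudogenes held more counts than the genes they derive from. Pseudogene transcripts that align best to one of the 35 genes had 549 rows, 378 of them with a count, for 33 genes. Their summed level was 148761 CPM in healthy 1, 146531 in healthy 2, and 140839, 118667 and 138135 in HCC 1 to 3, more than the genes' own rows in every library. They held 54.3 to 59.6% of the counts of genes and copies together, and over 50% for 17 genes. With only rows named after a gene (111 rows) the mean share was 38.9%.

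The share in copies was highest for Rps7 (92.4% on average), Rps6 (89.3%), Rps12 (88.6%), Rps2 (86.9%) and Fau (84.9%), and low for Rps3 (0.299%) and Rps20 (4%). Rps23-ps1 (chr3:37714740-37715164), a processed pseudogene 100% identical to Rps23 over the aligned part, had 4198 CPM in healthy 1, 18378 in healthy 2, and 11853, 10546 and 6957 in HCC 1 to 3. It was lowest in healthy 1 and highest in healthy 2, as the Rps23 row was. One row annotated as protein-coding, Rps12-ps3, was left out by its name and had 9028, 6100, 7266, 5128 and 7630 CPM in the same order, more than Rps12 itself in each library.

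**Figure D5:**
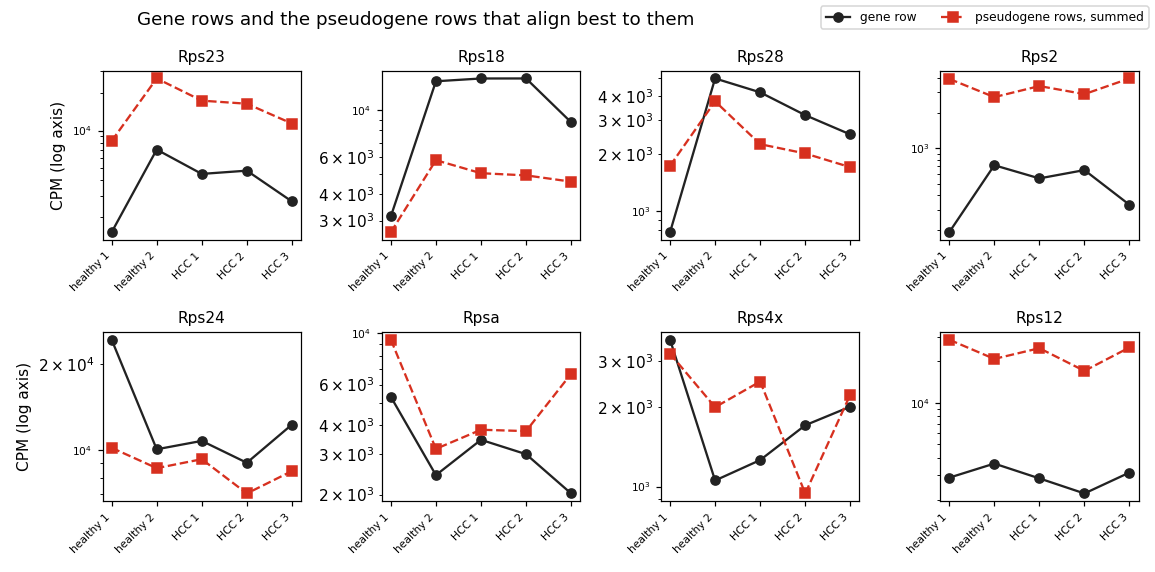
CPM (log axis) in the 5 libraries of the gene's own row and of the sum of pseudogene rows that align best to it, for 8 genes. In Rps23, Rps18 and Rps28 both lines are lowest, or nearly so, in healthy 1, whereas for Rps2 healthy 1 is lowest in the gene's row (192 CPM) and among the highest in the copies (3918 CPM).

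Gene rows and copies moved alike between the healthy libraries in part. For 20 of 30 genes compared, the ratio of healthy 2 to healthy 1 lay on the same side of 1 in the gene's row and in its copies (Pearson r 0.62 and Spearman rho 0.49 of the log ratios over genes, which share libraries and reads). Rps18 was 4.34-fold higher in healthy 2 in its row and 2.19-fold in its copies. Rps2 was 3.73-fold higher in its row, with its copies at a ratio of 0.699. With copies added to each gene's counts, edgeR still called 0 of 35, 30 of 35 (85.7%) were fitted lower against 49.6% of all genes, and the median was -0.36. The median over head genes then was -0.28.

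Sequence at the 3' end, where these reads fall, was shared to very different extents. Of the 31-base words in the last 300 bases of a gene's transcripts, 92.7% of Rps27rt, 87.8% of Rps27a, 87.5% of Rps12 and 80.1% of Rps18 also occur in another gene's transcript. The share was 6.75% for Rps3 and 0 for Rps20 and Rps19bp1. Across the 33 genes it had a Spearman rho of 0.11 with both the ratio of the healthy libraries and the fold change, a description over genes of the same libraries.

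Several of these genes host small nucleolar RNAs, guides of rRNA modification, in their introns. Some of those rows had counts at a similar share of the host's in every library. Snora33 stood at 45.6 to 50.1% and Snord100 at 42.6 to 45.2% of the Rps12 counts in each library, and Snord15b at 37.2 to 43.6% of those of Rps3. Whether reads were counted for both rows was not tested.

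The partners of the small subunit showed no called gene either, in lists drawn up by function. Of 46 tested maturation factors, which process the rRNA and assemble the subunit, 25 were fitted higher and 21 lower in HCC (median 0.02, 0 called). At an unadjusted edgeR p under 0.05 there were 5 of 46, against 3.63% of all genes. On TMM-scaled levels all HCC libraries lay above both healthy ones for 8 and below both for 3. Over all genes 10.6% lay above and 8.44% below. Their 2 most abundant members, the box C/D protein Snu13 and the processome protein Imp3, were at 38.2 and 25.2 CPM in healthy 1 and at 162 and 136 CPM in healthy 2. In HCC 1, 2 and 3 Snu13 was at 102, 114 and 106 CPM and Imp3 at 74.5, 101 and 45.6 CPM, between the healthy libraries.

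Of 23 initiation factors and other partners, 13 were fitted higher and 10 lower (median 0.07, 0 called). Rack1, the scaffold on the back of the head, was at 1487 CPM in healthy 1, 1333 in healthy 2, and 1344, 1212 and 1102 in HCC 1 to 3 (log2 fold change -0.41, SE 0.34), and Serbp1, which clamps idle ribosomes, at 628 and 755 CPM and at 775, 944 and 756 CPM (0.07, SE 0.32). On library totals HCC 1 lay between the healthy libraries for Rack1. For Serbp1 all HCC libraries lay above both on library totals, as for 12.8% of all genes, by a small step in 2 of them. The fold changes rest on TMM scaling instead. Of 13 genes of mTOR, S6 kinases and TOP regulators 9 were fitted higher (median 0.34), led in level by Eif4ebp2 (53.5, 111, 80.5, 120.5 and 89.7 CPM) and Eif4e (44.1, 74.1, 71.3, 61.7 and 44.6 CPM). Of 8 genes of ribosome stalling 6 were (median 0.29), led by Edf1 (102, 69.2, 119.7, 125 and 109 CPM) and Pelo (15.7, 34.6, 30.5, 46.5 and 39.3 CPM). Within both lists 0 genes were called and 0 were at an unadjusted p under 0.05.

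The large subunit's genes gave a similar picture. Of 50 tested, 40 were fitted lower in HCC (median -0.22, 0 called). At an unadjusted edgeR p under 0.05 there was 1 of 50, against 3.63% of all genes. Their summed level was 79114 CPM in healthy 1, 82561 in healthy 2, and 76753, 75829 and 75812 in HCC 1 to 3. The ratio of the small to the large subunit's summed level was 1.31 and 1.33 in the healthy libraries and 1.36, 1.32 and 1.24 in the HCC libraries. The healthy values lay inside the range of the HCC values, and a difference between the subunits was not resolved.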

How the data were processed

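The deposited files, 1 for each library, give unnormalized read counts for Ensembl genes, as whole numbers. Among the tools in the submitters' processing notes are the aligners HISAT2 and Bowtie2, bcl2fastq, and the R packages limma, edgeR, DESeq2 and DESeq. The notes list them with no role or version, and give mm10 as the build. How reads were assigned to genes, on which strand and with which annotation, is not given in the sources used here. Libraries were made with a QuantSeq 3' kit for Ion Torrent, per the labels' protocols. Symbols, gene types and positions came by gene ID from GENCODE M21 (55104 of 55364 rows).

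Counts of 8468 genes kept by filterByExpr were fitted with edgeR 4.0.16 (R 4.3.3, TMM scaling, quasi-likelihood test, no covariate, Benjamini-Hochberg threshold 0.05). The fit was also run on simulated counts with changes larger than any fitted for these genes, so that run does not give the power for them. Levels are CPM of each table's own total. Pseudogene transcripts were aligned with blastn 2.17.0 (e-value 1e-20) to protein-coding transcripts, and each was given to its best match. Equal scores went to the first symbol by alphabet, so a copy matching Rps27 and Rps27rt equally was given to Rps27. Shared 31-base words were counted on both strands of the annotated transcripts. Alternatives were DESeq2 1.42.0 size factors and Wald test, library totals, limma-voom (limma 3.58.1), other filters, a replicate block, leaving out each library, HCC 2 and HCC 3 summed (their tables share a number in the name), protein-coding rows only, and copies added to genes.

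The genes and lists were chosen with earlier results of these data known. From those results, Rps18 and Rps24 were known to differ in a single library. Named genes were the 8 with the highest mean CPM, the 6 with the lowest and the 6 with the highest fold change, the 6 with the largest coefficient of variation, Rpsa, Fau, Rps27a, Rps27, Rps27l, Rps6, Rps18 and Rps24, and the 2 most abundant genes of each partner list. Rps27rt, Rps12, Rps12-ps3, Rps23-ps1 and the small nucleolar RNA rows were named after their values were seen. Single values of 4 of the 35 genes are not reported here. The list of mitochondrially encoded genes matched 0 rows and was not analysed here. The fit without healthy 2 or without healthy 1 assumes that the lone healthy library varies like the HCC libraries.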

Additional observations from a re-analysis of the deposited data

How the results depend on the processing

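In 272 of 299 values for 20 named genes under the alternatives, the direction and the side of the threshold were those of the report. The cause of the exceptions was not tested. edgeR called 0 genes higher and 0 lower, DESeq2's Wald test called 8 higher, no filter on low counts gave 29 higher and 24 lower, and the replicate block 3 higher. Leaving out a library gave 0 to 102 higher and 0 to 94 lower, and 0 to 2 of the 35 genes called, all the upper values without healthy 2, where Rps24 (log2 fold change -1.46, edgeR adjusted p = 0.0462) and Rps28 (1.80, adjusted p = 0.0477) passed. The genes with all HCC libraries below both healthy ones numbered 4 with library totals (5.46% of all genes) and 9 to 18 when a library was left out (13.2 to 30.4% of all genes), and those above 1 with copies added and 2 to 9 when a library was left out (15.7 to 35.8%). The upper values come from fits with 1 healthy library, where more genes lie to one side by construction. The log2 ratio of summed levels was -0.10, and -0.29 with DESeq2 size factors and with TMM scaling, the latter chosen after seeing the data.

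The median log2 fold change of the 35 was -0.12 with library totals and -0.31 to -0.15 when a library was left out. That of body and platform genes was -0.13 with library totals and -0.32 to -0.13 when a library was left out, that of head genes -0.28 with copies added, that of the variants -0.55 to -0.15 when a library was left out and that of large subunit genes -0.03 with library totals. For maturation factors it was 0.18 with library totals, 0.17 with the replicate block, -0.04 with protein-coding rows only and -0.04 to 0.47 when a library was left out, and for initiation partners 0.24 with library totals.

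Single genes changed sign as follows. Without healthy 1 and without healthy 2 the values were -0.19 and 1.67 for Rps18, -0.53 and 1.11 for Rps2, -0.86 and 1.09 for Rps23, 0.07 and -1.46 for Rps24, -0.61 and 1.80 for Rps28, 0.63 and -1.41 for Rps4x, 0.41 and -0.08 for Rps6, -0.31 and 0.79 for Rps7, 0.10 and -0.73 for Rps9 and 0.19 and -1.20 for Rpsa. Rps27l ranged from -0.16 to 0.10 when a library was left out. Without HCC 1 Rps2 was at -0.02, Rps27l at 0.03 and Rps28 at -0.09, and without HCC 2 Rps2 at -0.09, Rps27l at 0.08 and Rps6 at -0.04. With copies added Rps2 was at -0.16, Rps28 at -0.20, Rps6 at -0.20 and Rps7 at -0.01. Rps27l was at 0.14 with library totals and 0.02 with no filter, and Rps23 at 0.06 with limma-voom and 0.28 with the replicate block. Pseudogene rows held a mean of 57.5% of the counts of genes and copies, and 38.9% by name only.

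Only 2 numbers are shared by both groups, with correlations of deviations of 0.00151 and 0.112 over 8468 genes. Healthy 1 and HCC 3, of different numbers, gave 0.114. With 2 healthy libraries their deviations mirror each other, so these correlations cannot decide on pairing. The numbers were not taken to pair libraries. With 2 healthy libraries, of which healthy 1 stands apart, the sign of the fold change of 8 named genes depends on healthy 1. The strand setting and the treatment of reads with several matches are not given, and the depth of 1718452 counts or more limits Rps27l and Rps19bp1 more than the other genes.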
